A study of Mus musculus with 2 samples.

Results

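The 10 genes described here are *Bmp2*, *Bmp4*, *Inhba*, *Tgfb2*, *Grem1*, *Fst*, *Smad7*, *Id1*, *Id2* and *Id3*, which encode ligands, antagonists and responses of BMP, activin and TGF-β signaling. They were given as a list of names and were matched by symbol to 10 of the 31053 features counted in mouse back skin. Their unique molecular identifiers (UMIs, each standing for 1 captured RNA molecule) were compared in bulge, hair germ, dermal papilla and epidermal cells. The study asked how raised *miR-205*, a microRNA of skin epithelium, acts on hair follicle stem cells and hair regrowth. There was 1 single-cell library from a control mouse and 1 from a *miR-205*-inducible mouse, at postnatal day 53.

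Both mice carried the *K14*-H2BGFP allele, which marks the nuclei of keratin 14-expressing cells, and the labels give C57BL/6 as the strain of both. In the inducible mouse a *pTRE2-miR-205* transgene, made in FVB mice, was switched on by doxycycline through *Krt14*-rtTA, whose keratin 14 promoter is active in epithelium. Doxycycline chow was given for 4 d from postnatal day 49. The sample label calls the control untreated, whereas the extraction protocol says that both mice were fed doxycycline. Cells were sorted on surface proteins and H2BGFP to bring epidermal, hair follicle and dermal cells together at 3:5:2. The cell filter kept 3936 control cells and 3628 induced cells, with a median of 12198.5 and 11752.5 UMIs per cell. The libraries had 11 cell barcodes in common, 5 of them among the kept cells. With 1 library per group no difference below has a replicate check or a test. All intervals are 95% intervals that cover counting error only.

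BMPs and activins or TGF-βs are secreted dimers that bind pairs of serine/threonine kinase receptors and pass the signal to SMAD proteins. BMP signaling is known to keep hair follicle stem cells of the bulge at rest, and TGF-β2 and BMP antagonists near the dermal papilla are known to favor activation of the hair germ, the small progenitor cluster below the bulge. The Id genes are among the most direct transcriptional responses to BMP receptors.

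The induced microRNA is shown first because its seed is what a direct target would pair with. Its mature sequence was taken from RefSeq, on GRCm38.p6 at chr1:193507503-193507524, minus strand. Capitals mark the seed, bases 2 to 8.
miR-205-5p: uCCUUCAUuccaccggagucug
The complement of the seed, ATGAAGG on the transcript strand, occurred in an annotated 3′ UTR of 0 of the 10 genes, beside 11.3% of 19915 genes with a 3′ UTR. The shorter match, TGAAGGA, which pairs with bases 2 to 7 and is followed by A, occurred in 1 of the 10, *Grem1*, beside 15.2% of genes. It began at base 943 of the 3436-base UTR of *Grem1*-001 and is shown in capitals within 30 bases.
Grem1 site: tttgcctctcTGAAGGAcaactgagagcct
These UTRs came from an annotation on build NCBIM37, an older build than that of the counts. The longest UTR of each gene ran from 82 bases in *Inhba* to 3436 in *Grem1*, and a short UTR offers few places for a match. A match is a run of letters and not a measured binding site. *Grem1* had a higher level in the induced than in the control bulge, as given below.

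Promoters were at hand for 6 of the 10 genes, from 250 bases before to 50 bases after the start (RefSeq, GRCm38.p6). They were searched for GGCGCC, a palindrome known as a BMP-responsive SMAD motif, and for GTCTAGAC, the palindrome of the SMAD-binding element, so that 1 strand covers both. GGCGCC occurred in *Grem1* at −78 and in *Id2* at −231 from the start, beside 11.9% of 32851 promoters. GTCTAGAC occurred in none of the 6 windows, beside 0.213% of promoters. The 3 promoters shown are those of the genes with the highest induced-over-control ratios in the bulge among those with at least 50 UMIs, with GGCGCC in capitals. They lie at chr2:113758599-113758898 (*Grem1*, minus strand), chr12:25096043-25096342 (*Id2*, minus strand) and chr4:136143572-136143871 (*Id3*, plus strand).
Grem1 promoter: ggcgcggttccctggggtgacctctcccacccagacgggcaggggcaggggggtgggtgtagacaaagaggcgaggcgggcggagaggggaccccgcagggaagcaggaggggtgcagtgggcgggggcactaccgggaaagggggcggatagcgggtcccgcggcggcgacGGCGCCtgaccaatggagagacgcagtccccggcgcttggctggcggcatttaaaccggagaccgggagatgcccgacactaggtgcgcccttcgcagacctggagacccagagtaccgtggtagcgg
Id2 promoter: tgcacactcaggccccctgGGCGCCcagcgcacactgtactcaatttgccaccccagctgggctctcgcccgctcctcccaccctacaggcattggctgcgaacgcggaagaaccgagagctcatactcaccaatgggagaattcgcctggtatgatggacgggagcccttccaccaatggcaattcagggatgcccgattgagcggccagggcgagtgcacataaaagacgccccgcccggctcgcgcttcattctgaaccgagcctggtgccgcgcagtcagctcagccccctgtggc
Id3 promoter: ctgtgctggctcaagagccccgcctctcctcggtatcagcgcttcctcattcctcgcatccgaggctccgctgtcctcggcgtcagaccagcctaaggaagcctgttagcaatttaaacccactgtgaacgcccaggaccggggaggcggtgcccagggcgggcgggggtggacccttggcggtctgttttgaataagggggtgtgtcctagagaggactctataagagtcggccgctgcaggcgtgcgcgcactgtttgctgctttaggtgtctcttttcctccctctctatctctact
The *Id3* window held neither run of letters, which says nothing about SMADs elsewhere in the gene.

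Cells were assigned by the UMIs of marker genes, which did not include any of the 10 genes. Bulge cells had *Krt24* and *Cd34* and numbered 176 in control and 264 in induced. Cells of the hair germ had *Lgr5* without *Krt24* and numbered 135 and 127. Dermal papilla cells numbered 82 and 151, basal epidermal cells 559 and 427, and suprabasal epidermal cells 124 and 117. Together these populations held 1076 of the control and 1086 of the induced cells, and the rest were cells of other types or cells that no gate took.

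Levels of marker lists describe the populations (in CPM, UMIs scaled to a common total per population). Among bulge, hair germ and dermal papilla, only the bulge list held markers outside its gate. In bulge cells *Postn* had 1096 CPM in control and 1018 CPM in induced, against at most 197 CPM in the other main populations, and *Lhx2* had 229 and 277 CPM. *Lhx2* had 160 and 197 CPM in the hair germ and so did not mark the bulge alone. The other bulge markers, *Krt24*, *Cd34* and *Krt15*, entered the gate. All hair germ and dermal papilla markers were genes of the gates, so their detection is no check of these names. The 5 hair germ markers summed to 412 and 355 CPM in hair germ cells. Among them *Hoxc13* was higher in the bulge, at 76.7 and 57.7 CPM, than in the hair germ, at 45.2 and 38.5 CPM. In dermal papilla cells 7 of 8 dermal papilla markers were detected in control and 8 of 8 in induced, at 530 and 452 CPM, with *Rspo2* at 0 in control. All 4 inner bulge markers were detected in bulge cells of both libraries and summed to 3263 CPM in control and 3369 CPM in induced. Most of this was *Krt6a* (3189 and 3140 CPM), with *Timp3* at 51.9 and 177 CPM, *Fgf18* at 14.8 and 34.3 CPM and *Krt75* at 6.88 and 17.5 CPM. The part of these transcripts in the bulge results was not tested. Immune markers summed to 565 CPM in control and 16.5 CPM in induced hair germ cells, from *Cd74* (367 and 15.4 CPM) and *Cd207* (193 and 0.549 CPM), with *Ptprc* at 0 by the gate. Smooth muscle markers summed to 25.7 and 61.0 CPM there. The part of these transcripts in the hair germ results was not tested.

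The cells of a population were not mixed alike in the libraries. Clusters made without the 10 genes and without any gene of the pathway list described below divided the bulge into cluster 5, led by *Krt24* and *Sfrp1*, and cluster 10, led by *Krt25* and *Kctd4* and with the inner bulge marker *Krt6a* among its leading genes. Cluster 5 held 43.2% of control and 72.0% of induced bulge cells, and cluster 10 held 55.7% and 24.6%. Hair germ cells lay mostly in cluster 13, led by *Tagln*, *Acta2* and *Slc7a8* (71.9% of control and 44.9% of induced), and cluster 18. Cluster 18 was led by *Fam13a*, with *Lgr5* among its leading genes, and held 9.63% and 42.5%. Cluster 15, led by *Ube2c* and with the cycling marker *Ccnb1* among its leading genes, held 5.19% and 7.09%. The rest of the hair germ cells lay in other clusters. Basal epidermal cells lay mostly in cluster 0, led by *Mmp10* (65.5% and 45.9%), and cluster 6, led by *Slc2a12* (19.7% and 33.7%). Dermal papilla cells lay in cluster 7 (97.6% and 95.4%), and suprabasal cells in cluster 9 (93.5% and 94.9%). A cluster that comes mostly from 1 library, as cluster 18 does with 13 control and 54 induced hair germ cells, cannot be told apart from a feature of that library. Cluster 10 had no bulge marker among its 10 leading genes, and among those of cluster 13 were *Tagln* and *Acta2*, both listed as smooth muscle markers, and no hair germ marker. The names bulge, hair germ and dermal papilla therefore stand for the marker gates. Ratios of genes named as higher or lower are also given within clusters, by number, from the population's cells in that cluster alone. For these a cluster held at least 10 cells of the population in each library and at least 20 UMIs over both. That minimum is lower than the 50 UMIs set below for a whole population.

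In the 5 populations, 35 of 50 possible ratios had at least 50 UMIs over both libraries, the minimum set for a ratio, and 15 had fewer. A gene was called higher or lower where the induced level was at least 1.5-fold above or below the control level. In the bulge 2 of 7 measured genes were called higher, beside 9.43% of 6543 genes tested there, and 0 were called lower, beside 5.29%. In the hair germ 3 of 7 were called higher, beside 11.4% of 5972 genes, and 2 were called lower, beside 9.88%. In the dermal papilla 1 of 7 was called higher, beside 7.85% of 3286 genes, and 0 were called lower, beside 10.9%. In the basal epidermis 2 of 9 were called higher, beside 6.37% of 8863 genes, and 1 was called lower, beside 2.78%. In the suprabasal epidermis 1 of 5 was called higher, beside 6.16% of 6133 genes, and 1 was called lower, beside 4.99%. Each count rests on few genes. The genes called higher were *Grem1* and *Id3* in the bulge, *Id3*, *Bmp2* and *Id1* in the hair germ, *Fst* in the dermal papilla, *Tgfb2* and *Id1* in the basal epidermis and *Bmp2* in the suprabasal epidermis. Those called lower were *Fst* and *Tgfb2* in the hair germ, *Inhba* in the basal epidermis and *Fst* in the suprabasal epidermis.

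**Figure D1:**
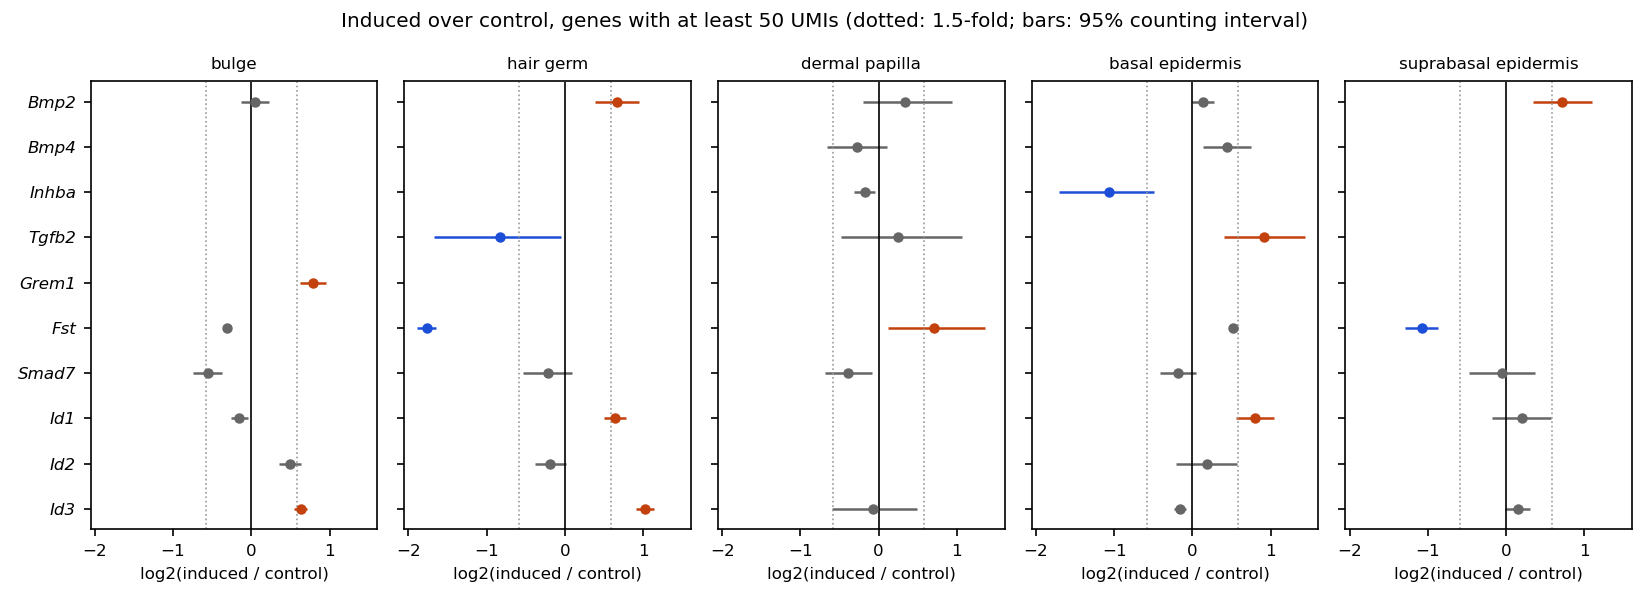
Log2 ratio of induced over control CPM (x axis) of each gene with at least 50 UMIs (y axis) in 5 populations, with 95% counting intervals as bars and 1.5-fold as dotted lines. Red-orange points are genes called higher, blue points genes called lower and gray points the rest. *Fst* was lower in the hair germ (−1.76) and higher, within 1.5-fold, in the basal epidermis (0.52).

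The genes differed in where their transcripts lay among all 27 clusters. *Inhba* was the most concentrated, with 75.6% of its UMIs over both libraries in cluster 7, which holds the dermal papilla cells. *Bmp4* had 28.0% of its UMIs in cluster 7 and 18.9% in basal epidermal cluster 6. *Grem1* had 35.9% in bulge cluster 5 and 16.6% in bulge cluster 10, and 29.6% in cluster 8, an unnamed cluster led by *Col4a4*, *Pthlh* and *Hhip*. *Fst* lay largely outside the 5 populations, which held 15.1% of its control and 21.0% of its induced UMIs. Its largest share, 32.4%, was in cluster 1, which is led by *Ccl1* and *Cacna2d2* and was not named, and 15.3% was in cluster 8. The *Fst* level was 5001 CPM in control and 4423 CPM in induced in cluster 1, and 7628 and 7441 CPM in cluster 8. *Tgfb2* had 33.7% of its UMIs in cluster 8 and 14.1% in fibroblast cluster 14. The Id genes and *Smad7* were spread more widely, with at most 18.0% of a gene's UMIs in 1 cluster. *Id2* had 11.8% in cluster 22, which holds immune cells.

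**Figure D2:**
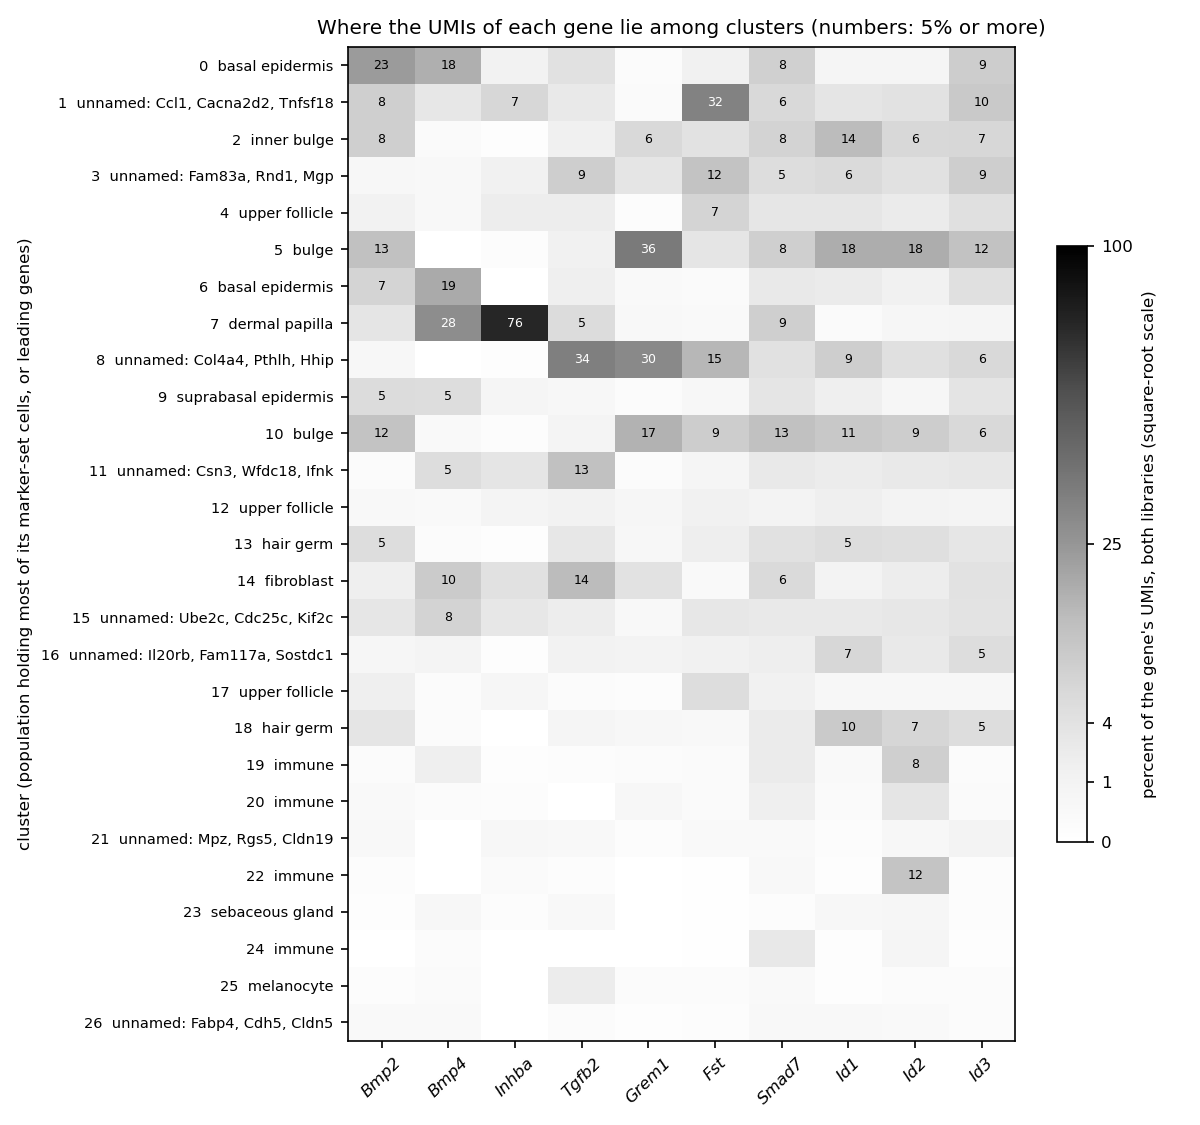
Percent of the UMIs of each gene (columns), both libraries together, that lay in each of 27 clusters (rows, with the population that holds most of its marker-set cells or, where no name was given, its leading genes). Darker squares hold more on a square-root scale, shares of 5% or more are printed, and *Inhba* in cluster 7 is the darkest at 75.6%.

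*Bmp2* (chromosome 2, 133552159 to 133562896, GRCm38.p6, as are all gene positions given here) encodes a BMP ligand. In the bulge, where its level was highest in both libraries, it had 432 UMIs in 176 control cells (229 CPM) and 648 in 264 induced cells (236 CPM). The log2 ratio of 0.05 (−0.13 to 0.23) did not differ from 0 beyond counting error, and it was −0.15 (−0.42 to 0.12) within cluster 5 and 0.42 (0.16 to 0.68) within cluster 10. Hair germ cells had 172 *Bmp2* UMIs in control (98.4 CPM) and 284 in induced (156 CPM), a log2 ratio of 0.66 (0.39 to 0.95). The hair germ value was 0.58 (0.18 to 0.98) within cluster 13 and 0.91 (0.20 to 1.79) within cluster 18, and it was 0.39 without the 5 cells richest in *Bmp2* in each library. The higher level was thus present in both of these clusters, with much of it in few cells. In induced hair germ 7 cells had 10 or more *Bmp2* UMIs against 1 control cell. The suprabasal epidermis had the lowest level of the 5 populations, 39.9 CPM from 100 control UMIs and 65.5 CPM from 154 induced UMIs, a log2 ratio of 0.71 (0.34 to 1.09), with 0.69 (0.32 to 1.07) within cluster 9. In the basal epidermis the levels were 99.98 and 109.6 CPM, and in the dermal papilla they were 95.7 and 122 CPM, both with intervals of the ratio that spanned 0. In control the basal, hair germ and dermal papilla levels were not separated by their intervals. *Bmp2* UMIs were found in 51.1% of control and 57.5% of induced hair germ cells, beside 3.16% and 1.91% of immune cells, which served as a background of free RNA.

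*Bmp4* (chromosome 14, 46383525 to 46390669) encodes the BMP ligand best known from the dermal papilla. It had 90 UMIs in control dermal papilla cells (233 CPM) and 162 in induced (192 CPM). The log2 ratio of −0.28 (−0.66 to 0.11) did not differ from 0 beyond counting error. The basal epidermis followed at 19.0 CPM (171 UMIs) in control and 25.8 CPM (182 UMIs) in induced, with a log2 ratio of 0.44 (0.13 to 0.75) that stayed within 1.5-fold. Within basal cluster 0 the ratio was 0.62 (0.15 to 1.09) and within cluster 6 it was −0.32 (−0.77 to 0.12). The clusters thus differed in sign, with the interval of cluster 6 spanning 0. *Bmp4* was barely detected in bulge cells, with 0 UMIs in 176 control cells, which allows a share of up to 1.70%, and 1 UMI in 264 induced cells. The hair germ had 5 and 2 UMIs. Levels in the dermal papilla exceeded those of every other population in both libraries.

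*Inhba* (chromosome 13, 16004256 to 16031609) encodes the subunit from which activin A is built. Its level in the dermal papilla was 1813 CPM in control (701 UMIs) and 1600 CPM in induced (1352 UMIs). The log2 ratio was −0.18 (−0.31 to −0.05), within 1.5-fold, and it was −0.12 (−0.26 to 0.01) within cluster 7 and 0.05 without the 5 richest cells of each library. *Inhba* UMIs were found in 73.2% of control and 76.8% of induced dermal papilla cells, with a median of 4 and 3 UMIs per cell. No other of the 5 populations reached 10 CPM in either library. In the basal epidermis *Inhba* had 89 UMIs in control (9.90 CPM) and 33 in induced (4.68 CPM), a log2 ratio of −1.07 (−1.70 to −0.49). These UMIs came from few cells, as 25 control and 11 induced cells had any, and 5 cells held 64.0% and 78.8% of them. The basal ratio was −1.85 (−4.42 to −0.30) within cluster 0 and −1.48 (−2.37 to −0.72) within cluster 1. Restricting cells to under 5% mitochondrial UMIs brought the basal value to 0.00266. In the suprabasal epidermis all 21 induced UMIs lay in 1 cell, against 1 UMI in control, and no ratio is given.

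*Tgfb2* (chromosome 1, 186622787 to 186709697) encodes a TGF-β ligand. The dermal papilla had its highest level of the 5 populations, 54.3 CPM in control (21 UMIs) and 65.1 CPM in induced (55 UMIs), with a log2 ratio of 0.24 (−0.49 to 1.06). Hair germ cells had 38 *Tgfb2* UMIs in control (21.7 CPM) and 22 in induced (12.1 CPM), a log2 ratio of −0.83 (−1.67 to −0.05). In the basal epidermis it had 54 UMIs in control (6.01 CPM) and 80 in induced (11.3 CPM), a log2 ratio of 0.91 (0.40 to 1.44). Both values rest on few cells, 20 and 12 hair germ cells and 30 and 36 basal cells with a *Tgfb2* UMI. The hair germ value was −0.21 at under 5% mitochondrial UMIs and −0.02 (−0.99 to 0.89) within cluster 13, and the basal value was 0.95 (0.10 to 1.82) within cluster 0 and −1.09 (−2.52 to 0.22) within cluster 6. Basal clusters 0 and 6 held 24 and 13 of the 54 control UMIs and 26 and 9 of the 80 induced UMIs, and the rest lay in other clusters. In bulge cells *Tgfb2* had 16 and 12 UMIs, too few for a ratio. Outside the 5 populations fibroblasts had 127 CPM in control and 89.5 CPM in induced.

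**Figure D3:**
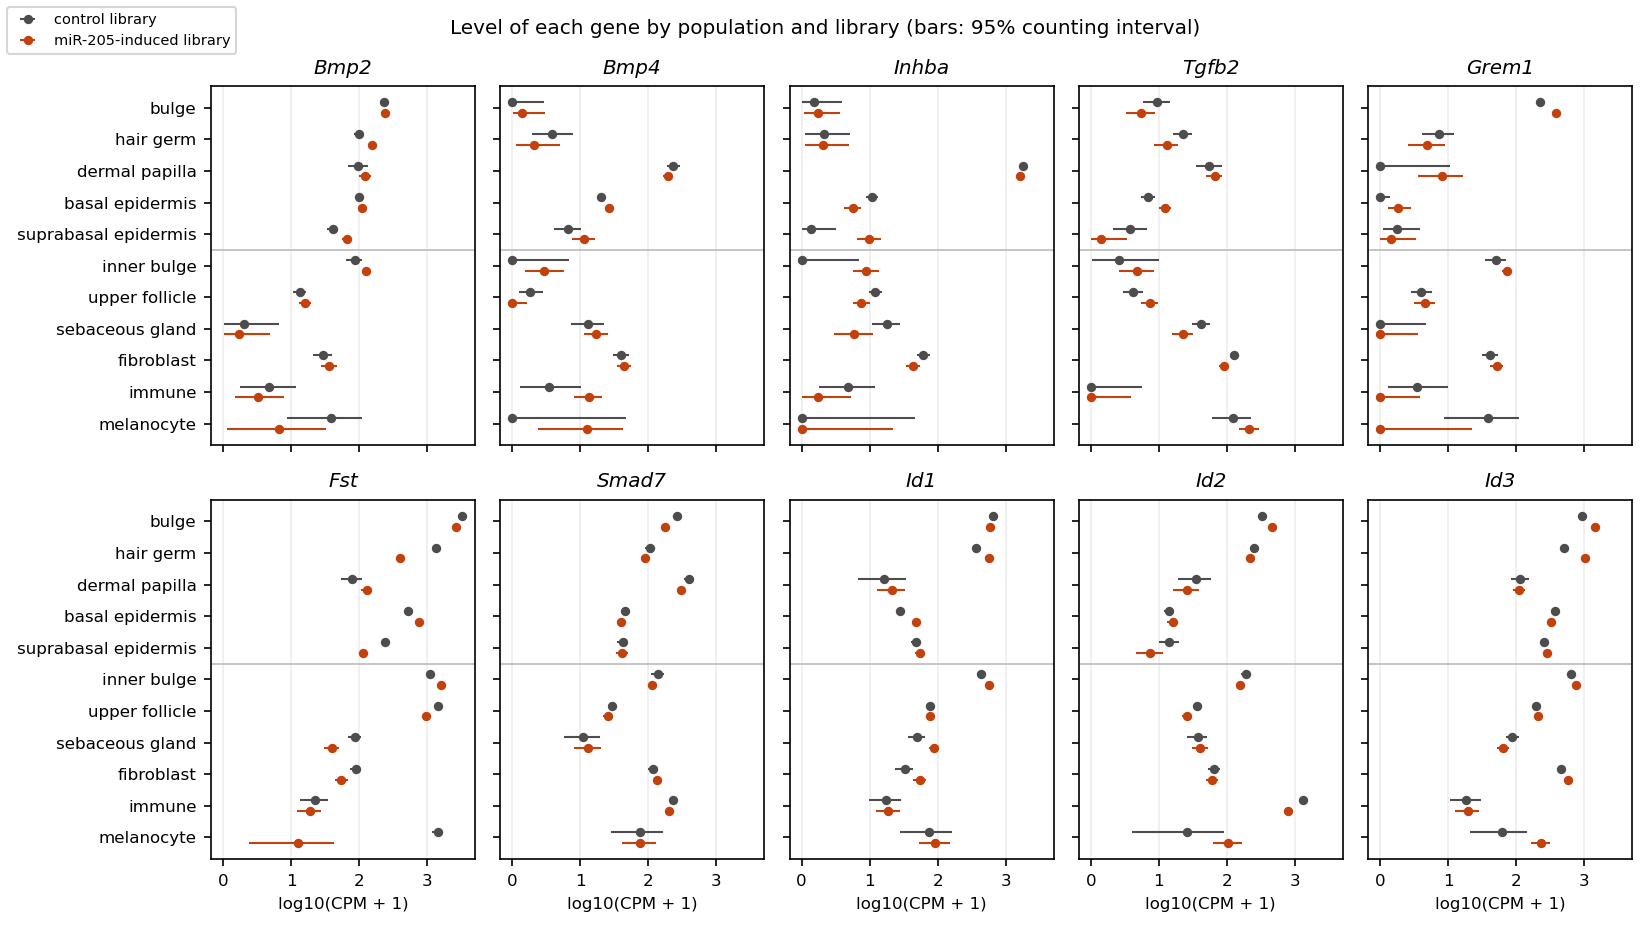
Level of each gene as log10(CPM + 1) (x axis) in 5 main and, below the line, 6 other populations (y axis), with control in gray, induced in red-orange and 95% counting intervals as bars. *Inhba* and *Bmp4* were highest in the dermal papilla and *Grem1* and *Fst* in the bulge among the main populations, in both libraries.

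*Grem1* (chromosome 2, 113748675 to 113758648) encodes gremlin, a secreted antagonist that binds BMPs. Among the 5 populations it was a bulge transcript. In 176 control bulge cells it had 425 UMIs (225 CPM) and in 264 induced bulge cells 1062 UMIs (388 CPM), a log2 ratio of 0.78 (0.62 to 0.95). This is a level 1.72-fold (1.54 to 1.93) higher in the induced library. *Grem1* UMIs were found in 69.3% of control and 81.4% of induced bulge cells, and in 49.1% and 66.4% after each cell was thinned to 5000 UMIs, beside 2.11% of control immune cells and 0 of 157 induced ones, which allows a share of up to 1.91%. The ratio was 0.49 (0.27 to 0.71) within cluster 5 and 0.61 (0.32 to 0.89) within cluster 10, so the level was higher in both clusters and above 1.5-fold in cluster 10. Its 14 alternatives ranged from 0.49 to 0.98. Cluster 5 had the higher *Grem1* level in both libraries and also the larger share of induced bulge cells. The hair germ had 11 and 7 UMIs, the dermal papilla 0 and 6, and the basal epidermis 0 and 6. The 0 of 559 control basal cells allows a share of up to 0.537%.

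*Fst* (chromosome 13, 114452262 to 114458989) encodes follistatin, which binds and neutralizes activins. Its hair germ value was the lowest of the 35 ratios. There it had 2354 UMIs in 135 control cells (1347 CPM) and 722 in 127 induced cells (397 CPM), a log2 ratio of −1.76 (−1.89 to −1.64). The induced level was thus 0.295 of the control level (0.271 to 0.320). The share of hair germ cells with an *Fst* UMI was 69.6% in control and 43.3% in induced, 56.1% and 33.9% after thinning, beside 15.8% and 14.0% of immune cells. Cells with 10 or more *Fst* UMIs made up 34.8% of control and 15.0% of induced hair germ cells. The ratio was −1.44 (−1.61 to −1.27) within cluster 13, from 1185 to 437 CPM. It was −2.80 (−3.29 to −2.33) within cluster 18, from 679 to 97.1 CPM, in 13 control and 54 induced hair germ cells. Over all cells, in the gate or not, *Fst* went from 1140 to 405 CPM in cluster 13 and from 461 to 277 CPM in cluster 18. Cluster 13 held 1427 of the 2354 control and 373 of the 722 induced UMIs, and cluster 18 held 94 and 64. The rest lay in hair germ cells of other clusters. The 14 alternatives lay between −2.80 and −1.44, with −2.21 when the 5 richest cells of each library were left out. The level was thus lower in the induced library in both clusters and without the richest cells. The hair germ level lay between those of the bulge and the basal epidermis in control and below that of the basal epidermis in induced, with intervals that did not overlap.

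The bulge had the highest *Fst* level of the 5 populations, below the levels of unnamed clusters 1 and 8. In it *Fst* had 6200 UMIs in control (3281 CPM) and 7234 in induced (2640 CPM), a log2 ratio of −0.31 (−0.36 to −0.26). Among the bulge cells of each cluster the sign was the other way. Cluster 5 had 1054 CPM in control (726 UMIs) and 1733 CPM in induced (3215 UMIs), a log2 ratio of 0.72 (0.60 to 0.84). Cluster 10 had 4595 CPM in control (5417 UMIs) and 4857 CPM in induced (3690 UMIs), a log2 ratio of 0.08 (0.02 to 0.14). The *Fst*-rich cluster 10 made up 55.7% of control and 24.6% of induced bulge cells. The level of the whole bulge was lower in the induced library although the bulge cells of neither cluster were lower. Over all cells, in the gate or not, *Fst* went from 1197 to 1571 CPM in cluster 5 and from 4321 to 4046 CPM in cluster 10. The sign in cluster 10 thus depended on the gate. What made the libraries differ in this way was not tested.

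In the basal epidermis *Fst* had 4743 UMIs in control (527 CPM) and 5349 in induced (758 CPM), a log2 ratio of 0.52 (0.47 to 0.58), within 1.5-fold. The basal ratio was 0.87 (0.72 to 1.01) within cluster 0, 0.26 (0.18 to 0.33) within cluster 1 and 1.00 (0.40 to 1.67) within cluster 6. The basal cells of all 3 clusters were thus higher. Over all cells, in the gate or not, *Fst* went from 129 to 173 CPM in cluster 0 and from 27.5 to 50.6 CPM in cluster 6. In cluster 1 it went the other way, from 5001 to 4423 CPM. In the suprabasal epidermis *Fst* had 604 UMIs in control (241 CPM) and 268 in induced (114 CPM), a log2 ratio of −1.08 (−1.29 to −0.87). There 5 cells held 64.4% of the control and 70.1% of the induced UMIs. The suprabasal value was −0.62 (−0.87 to −0.37) within cluster 9 and −0.17 with no upper limit on detected genes. In the dermal papilla *Fst* had 30 UMIs in control (77.6 CPM) and 108 in induced (128 CPM), a log2 ratio of 0.70 (0.13 to 1.36). There 5 cells held 60.0% and 82.4% of the UMIs and 1 induced cell held 44. *Fst* UMIs were found in 20.7% of control and 15.2% of induced dermal papilla cells, close to the 15.8% and 14.0% of immune cells. Within cluster 7 the dermal papilla ratio was −1.17 (−1.99 to −0.37) and without the 5 richest cells it was −0.55. Its 13 alternatives ranged from −1.39 to 1.86, so the sign depended on which cells were taken.

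**Figure D4:**
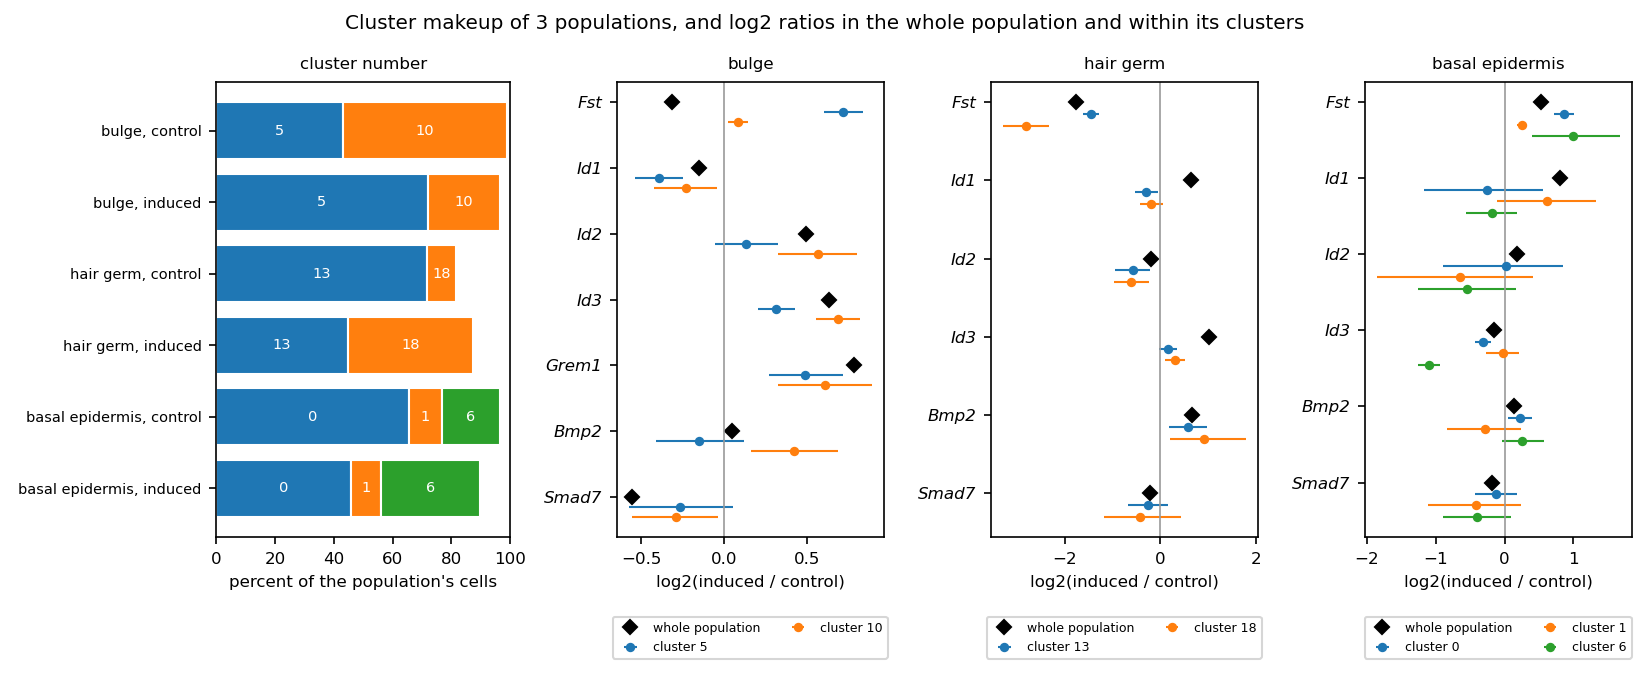
Left, percent of bulge, hair germ and basal epidermal cells (x axis) in the numbered clusters that hold at least 10 of them in each library. Right, log2 ratios of induced over control CPM (x axis) of 6 or 7 genes (y axis) in each whole population (black diamonds) and within its clusters (colored points, bars are 95% counting intervals). *Id1* in the hair germ was 0.64 in the whole population and −0.29 and −0.19 within its clusters, whereas *Fst* was below −1.4 in each.

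*Smad7* encodes an inhibitory SMAD that blocks receptors of the family and is itself induced by TGF-β and BMP. Among the 5 populations its level was highest in the dermal papilla. There it had 154 UMIs in control (398 CPM) and 257 in induced (304 CPM), a log2 ratio of −0.39 (−0.68 to −0.09). Immune cluster 24 had more *Smad7*, at 835 CPM in control and 647 CPM in induced. In the bulge *Smad7* had 489 UMIs in control (259 CPM) and 482 in induced (176 CPM), a log2 ratio of −0.56 (−0.74 to −0.37). This was just within 1.5-fold, at a fold of 0.680 (0.598 to 0.772). The bulge ratio was −0.27 (−0.58 to 0.05) within cluster 5 and −0.29 (−0.56 to −0.04) within cluster 10, smaller than in the whole bulge, and its 14 alternatives ranged from −0.71 to −0.27. The other ratios were −0.22 (−0.53 to 0.10) in the hair germ, −0.18 (−0.41 to 0.05) in the basal epidermis and −0.05 (−0.47 to 0.36) in the suprabasal epidermis. *Smad7* thus had a value below 0 in all 5 populations, and the intervals excluded 0 in the bulge and dermal papilla. With the marker minimums doubled, the values of the hair germ, basal and suprabasal epidermis were 0.05, 0.04 and 0.08.

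*Id1* (chromosome 2, 152736251 to 152737410) encodes a helix-loop-helix protein that lacks a DNA-binding domain and holds back other helix-loop-helix factors, as do *Id2* and *Id3*. Hair germ cells had 641 *Id1* UMIs in control (367 CPM) and 1041 in induced (572 CPM), a log2 ratio of 0.64 (0.50 to 0.79). Within clusters the ratio was −0.29 (−0.53 to −0.05) in cluster 13 and −0.19 (−0.43 to 0.06) in cluster 18. The *Id1* level was 330 and 269 CPM in cluster 13 and 1278 and 1121 CPM in cluster 18. Cluster 18, with the higher level in both libraries, made up 9.63% of control and 42.5% of induced hair germ cells. A like pattern was seen in the basal epidermis, where *Id1* had 244 UMIs in control (27.1 CPM) and 334 in induced (47.4 CPM), a log2 ratio of 0.80 (0.56 to 1.05), against −0.26 (−1.17 to 0.56) within cluster 0 and −0.19 (−0.55 to 0.18) within cluster 6. Within basal cluster 1 it was 0.61 (−0.11 to 1.33). Clusters 0, 1 and 6 held 39, 33 and 110 of the 244 control UMIs and 18, 37 and 145 of the 334 induced UMIs. The rest lay in basal cells of other clusters. These included cluster 3, with 1.25% of control and 4.45% of induced basal cells, and cluster 16, with 1.25% and 3.28%. In the bulge, where *Id1* was highest in control, it had 1231 UMIs (651 CPM) and 1607 UMIs in induced (586 CPM), a log2 ratio of −0.15 (−0.26 to −0.04), and it was −0.39 (−0.54 to −0.25) in cluster 5. In induced the bulge and hair germ levels were not separated by their intervals.

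*Id2* (chromosome 12, 25093799 to 25096092) had 617 UMIs in control bulge cells (327 CPM) and 1261 in induced (460 CPM), a log2 ratio of 0.49 (0.35 to 0.64), within 1.5-fold. The bulge ratio was 0.13 (−0.06 to 0.32) within cluster 5 and 0.56 (0.33 to 0.80) within cluster 10. Hair germ cells had 437 *Id2* UMIs in control (250 CPM) and 399 in induced (219 CPM), a log2 ratio of −0.19 (−0.39 to 0.01). There it was lower within both clusters, at −0.57 (−0.95 to −0.21) in cluster 13 and −0.62 (−0.97 to −0.24) in cluster 18. *Id2* in the epidermis was low, at 13.2 CPM in control and 15.0 CPM in induced basal cells. Immune cells, outside the 5 populations, had more *Id2* than any of them, at 1322 CPM in control and 794 CPM in induced.

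*Id3* (chromosome 4, 136143822 to 136145392) was the Id gene called higher in both follicle populations. In the bulge it had 1760 UMIs in control (931 CPM) and 3953 in induced (1442 CPM), a log2 ratio of 0.63 (0.55 to 0.71). The bulge ratio was 0.31 (0.20 to 0.42) within cluster 5 and 0.68 (0.55 to 0.82) within cluster 10, so both clusters were higher and cluster 10 alone was past 1.5-fold. Hair germ cells had 894 *Id3* UMIs in control (511 CPM) and 1889 in induced (1038 CPM), a log2 ratio of 1.02 (0.91 to 1.14), or 2.03-fold (1.87 to 2.20). The ratio was smaller within hair germ clusters, at 0.17 (−0.02 to 0.35) in cluster 13 and 0.30 (0.09 to 0.52) in cluster 18. The median hair germ cell had 5 *Id3* UMIs in control and 8 in induced, and 27 of 135 control and 56 of 127 induced cells had 10 or more. In the basal epidermis *Id3* had 3306 UMIs in control (368 CPM) and 2325 in induced (330 CPM), a log2 ratio of −0.16 (−0.24 to −0.08). Within basal cluster 6 it was −1.10 (−1.26 to −0.95), from 600 to 280 CPM, and within cluster 0 it was −0.31 (−0.43 to −0.20). In the suprabasal epidermis the levels were 253 and 281 CPM, and in the dermal papilla they were 114 and 109 CPM, with intervals of both ratios that spanned 0. The dermal papilla value ranged over its alternatives from −0.79 with marker minimums doubled to 1.12 without the 5 richest cells of each library, so its sign depended on which cells were taken. Within both hair germ clusters *Id1* and *Id2* had values below 0 and *Id3* values above 0.

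The other genes of the pathway were read from a list of 71 that includes the 10 genes. The list had a median log2 ratio of −0.07 over 44 measured genes in the bulge, beside 0.06 for all genes tested. There 5 were called higher and 6 lower, beside 9.43% and 5.29% of all genes. In the hair germ the median was −0.12 over 39 genes beside −0.02, with 7 higher and 4 lower, beside 11.4% and 9.88%. In the dermal papilla it was 0.03 over 33 genes beside −0.07, with 2 higher and 2 lower, beside 7.85% and 10.9%. Basal epidermal cells had 0.11 over 46 genes beside 0.04, with 3 higher and 2 lower, beside 6.37% and 2.78%. In the suprabasal epidermis it was 0.05 over 32 genes beside −0.01, with 4 higher and 3 lower, beside 6.16% and 4.99%. Each of these counts rests on few genes, and nothing particular to the pathway is read from them.

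By role, the antagonists other than *Grem1* and *Fst* were led by *Sostdc1*, a BMP and WNT antagonist of the follicle. It went from 166 CPM in control to 347 CPM in induced bulge cells, a log2 ratio of 1.06 (0.88 to 1.25), and from 57.2 to 123 CPM in hair germ cells, a log2 ratio of 1.09 (0.75 to 1.45). The *Sostdc1* ratio was smaller within clusters, at 0.66 (0.43 to 0.90) in bulge cluster 5, 0.50 (0.11 to 0.88) in bulge cluster 10, 0.26 (−0.40 to 0.91) in hair germ cluster 13 and 0.17 (−0.39 to 0.81) in hair germ cluster 18. It was thus above 0 beyond counting error in the bulge clusters and not separated from 0 in those of the hair germ. At under 5% mitochondrial UMIs the *Sostdc1* ratio was 0.54 in the bulge and 0.19 in the hair germ. In the bulge 2 of 9 measured antagonists were called higher, *Grem1* and *Sostdc1*, and 0 lower, beside 9.43% and 5.29% of all genes. Of 5 hair germ antagonists 1 was called higher and 1 lower, *Sostdc1* and *Fst*, beside 11.4% and 9.88%. *Nbl1*, which encodes a BMP antagonist of the DAN family, was lower in the basal epidermis, from 115 to 63.1 CPM (log2 ratio −0.86), and in the suprabasal epidermis, from 50.2 to 28.1 CPM (−0.83). It was −0.75, −1.38 and −1.30 within basal clusters 0, 1 and 6 and −0.86 within suprabasal cluster 9, so it was lower in each.

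Among ligands and latent binding proteins, *Inhbb*, an activin subunit, was higher in the hair germ at 1.31 (0.47 to 2.26), from 16 control and 42 induced UMIs. It was 0.51 (−0.85 to 2.62) within cluster 18 and 0.03 at under 5% mitochondrial UMIs. *Ltbp2* was lower in the bulge at −1.18 (−1.60 to −0.76), from 125 and 80 UMIs, with −1.20 within cluster 5 and −1.36 within cluster 10. In the dermal papilla *Gdf10* was lower at −1.83 (−2.67 to −1.03), from 36 and 22 UMIs, and *Tgfb1* at −0.73 (−1.37 to −0.07), from 37 and 49 UMIs, with −1.77 and −0.73 within cluster 7. Among receptors, 2 of 7 measured in the hair germ were called lower, *Tgfbr2* at −1.10 (−1.59 to −0.64) and *Acvr1* at −0.81 (−1.49 to −0.18), and 0 were called higher, beside 9.88% and 11.4% of all genes. Within cluster 13 these were −0.40 (−0.96 to 0.14) and −0.42 (−1.25 to 0.34), with intervals that spanned 0. At under 5% mitochondrial UMIs they were −0.04 and −0.20, from 45 control and 31 induced cells. The coreceptor gene *Eng* was higher in the dermal papilla at 1.02 (0.07 to 2.23), with 0.73 (−0.26 to 1.95) within cluster 7, and *Acvr2a* in the suprabasal epidermis at 0.81 (0.08 to 1.58), with 0.84 (0.09 to 1.64) within cluster 9. Among SMADs and their ubiquitin ligases, *Smad4* was higher in the hair germ at 0.76 (0.27 to 1.28). It was 1.25 (0.61 to 1.93) within cluster 13, −0.17 (−1.39 to 1.49) within cluster 18 and 0.29 at under 5% mitochondrial UMIs. *Smurf1* was lower in the bulge at −0.59 (−1.15 to −0.03), with −0.41 and −0.53 within clusters 5 and 10 and both intervals spanning 0. *Smad1* was lower in the suprabasal epidermis at −0.64 (−1.01 to −0.28), with −0.60 (−0.98 to −0.22) within cluster 9.

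Among 6 measured TGF-β responses in the bulge 3 were called lower, beside 5.29% of all genes. These were *Skil* (log2 ratio −0.81, −1.04 to −0.58), *Tgif1* (−0.68, −0.82 to −0.54) and *Pmepa1* (−0.61, −0.82 to −0.40). Within clusters 5 and 10 *Skil* was −0.56 (−0.93 to −0.17) and −0.54 (−0.87 to −0.22), and *Tgif1* was −0.37 (−0.61 to −0.12) and −0.26 (−0.44 to −0.08), lower in both but within 1.5-fold. *Pmepa1* was 0.22 (−0.26 to 0.74) and −0.10 (−0.36 to 0.16), with both intervals spanning 0. Cluster 10, whose share was smaller in induced, had the higher level of all 3 in both libraries. *Ctgf*, which encodes a matricellular protein and is also a known YAP target, was higher in the bulge at 0.82 (0.68 to 0.95), from 325 to 572 CPM, but 0.41 (0.24 to 0.59) within cluster 5 and 0.02 (−0.26 to 0.29) within cluster 10. *Ctgf* was also higher in the hair germ at 2.61 (2.14 to 3.15) and in the basal epidermis at 2.15 (1.61 to 2.76), where 5 cells held 64.1% and 60.2% and then 85.3% and 84.2% of its control and induced UMIs. Its hair germ value was 0.55 (−0.25 to 1.35) within cluster 13 and 3.62 (2.28 to 6.13) within cluster 18, the latter from 21.7 CPM (3 UMIs) in control to 311 CPM in induced. Within basal cluster 0 it was 5.03 (2.99 to 10.95), from 1 control and 27 induced UMIs, and within basal cluster 1 it was 2.48 (1.15 to 4.34), from 5 and 22 UMIs. No called TGF-β response of the bulge was past 1.5-fold in either cluster. Of 7 measured BMP responses in the bulge 2 were called higher, *Id3* and *Msx2*, beside 9.43% of all genes. *Msx2* was at 0.66 (−0.22 to 1.66) from 15 and 35 UMIs and at 0.16 (−0.86 to 1.40) within cluster 5. Of 6 hair germ BMP responses 2 were called higher, *Id1* and *Id3*, beside 11.4%, and neither was past 1.5-fold within a hair germ cluster. In either population 0 were called lower.

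**Figure D5:**
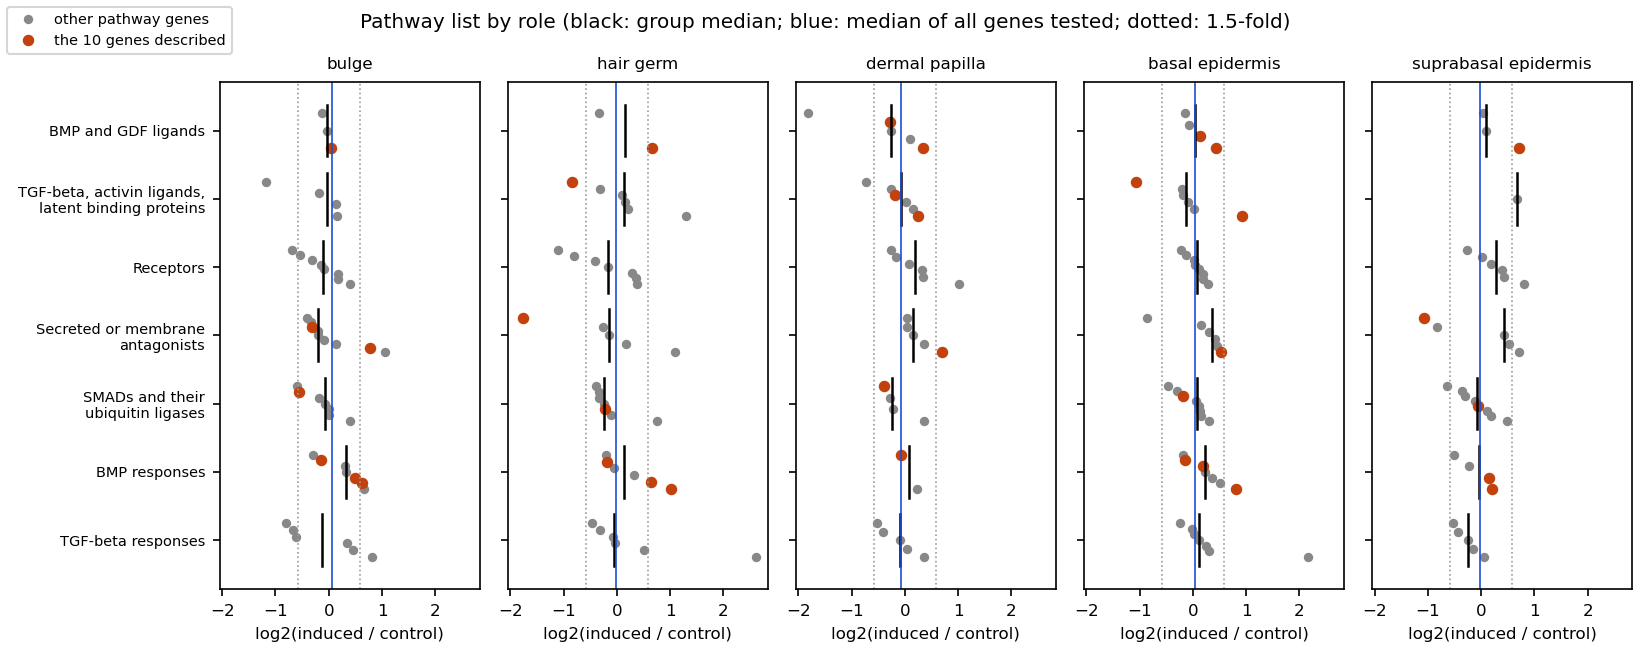
Log2 ratio of induced over control CPM (x axis) of the pathway list by role (y axis) in 5 populations, 1 point per gene with at least 50 UMIs, with the 10 genes in red-orange and the others in gray. Black bars are medians of a role, blue lines medians of all genes tested and dotted lines 1.5-fold. The bulge TGF-β responses spread from −0.81 (*Skil*) to 0.82 (*Ctgf*).

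The genes whose levels were most like those of the 10 were found by Pearson's r of log2(CPM + 1) over 22 profiles, 11 populations in each of 2 libraries, among 10802 genes. The profiles share libraries, so the values are descriptions. *Id1* was most like *Lhx2* (r = 0.965), the bulge transcription factor, which was among the bulge markers. Next came *Hoxc13* (0.918), listed as a hair germ marker but higher in the bulge, and *Tbx1* (0.909). *Bmp2* was most like *Mtmr11* (0.955), *Smad7* like *S100a4* (0.922), *Tgfb2* like *Maged2* (0.921), *Inhba* like *Lamc3* (0.920), *Id3* like *Hspb8* (0.918), *Id2* like *Eps8* (0.907), *Grem1* like *Flnc* (0.888) and *Bmp4* like *Epb41l1* (0.879). *Fst* was most like *Shoc2* (0.862) and *Tpm1* (0.860), followed by *Smad1* (0.859), the only pathway gene among the 30 named by this rule.

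The host transcript of *miR-205*, 4631405K08Rik, was 169 CPM in control and 115 CPM in induced bulge cells and 116 and 92.3 CPM in hair germ cells. It was 34.9 and 57.8 CPM in basal and 9.97 and 15.3 CPM in suprabasal epidermal cells, and dermal papilla cells had 0 control and 1 induced UMI. The values were thus lower in the induced library in the follicle populations and higher in the epidermis. This transcript measures neither the transgene nor the mature microRNA, so the level of *miR-205* in these cells is not given by these data.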

How the data were processed

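The authors counted UMIs per gene and cell barcode with Cell Ranger 3.0.1 on mm10 and deposited raw counts, whole numbers with no normalization, for 4545 control and 4264 induced barcodes (55465594 and 49733560 UMIs). Cells with over 200 and under 5000 detected genes and under 10% mitochondrial UMIs were kept, as the study's methods state. Doublets were not removed.

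Populations were set by minimums of marker UMIs, which were chosen after seeing the data. The 10 genes, the list of 71 pathway genes, the markers and the comparisons were chosen with earlier results of these data known. Bulge cells had at least 2 *Krt24* and 1 *Cd34* UMIs, hair germ cells at least 1 *Lgr5* and 2 hair germ marker UMIs with no *Krt24*, and dermal papilla cells at least 1 of 8 markers with fewer than 20 keratin and 10 *Col1a1* or *Dcn* UMIs. Basal cells had at least 3 *Ly6a* and 50 *Krt14* UMIs, and suprabasal cells at least 10 *Krt10* and 10 *Krt1* or *Mt4* UMIs. In control 32 bulge cells lay at the *Krt24* minimum and 63 lay 1 UMI under it, and 32 dermal papilla cells lay at theirs with 154 just under it. Cells that passed 2 gates (9 control, 4 induced) were dropped.

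Within each library, the UMIs of a population were added up and expressed as CPM with exact Poisson intervals. Log2 ratios used a pseudocount of 0.5 UMIs and an exact conditional binomial interval. Shares of cells carry Clopper-Pearson intervals and were repeated after thinning each cell to 5000 UMIs. Shallower cells were dropped there, namely 50 control and 51 induced dermal papilla cells and at most 8 cells per library of each other main population. The limit of a share of 0 is 3 cells of the total. Leiden clusters (27, resolution 1.0, 30 components, 1979 variable genes, scanpy 1.11.5) were made without the pathway genes. The computation of ratios and intervals was checked on simulated counts with known folds. Named genes were the 10 genes, pathway genes past 1.5-fold with at least 50 UMIs and an interval on 1 side of 0, and the 3 genes most like each. *Msx2* was named after its value was seen. Alternatives within single clusters, without the 5 richest cells, and all those of pathway genes other than the 10 were chosen after seeing the data. *Ctgf* was matched by an older symbol. Sequences came from RefSeq (GRCm38.p6) and from an NCBIM37 annotation.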

Additional observations from a re-analysis of the deposited data

Results flagged for a closer look

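For 2 genes, populations lay past 1.5-fold in opposite directions. *Fst* had log2 ratios of −1.76 in the hair germ and −1.08 in the suprabasal epidermis, against 0.70 in the dermal papilla. *Tgfb2* had −0.83 in the hair germ against 0.91 in the basal epidermis. The differences between populations were not tested, since each group has 1 library. The *Fst* value of the hair germ rests on 2354 control and 722 induced UMIs, whereas the dermal papilla value rests on 30 and 108. The latter was −1.17 within cluster 7, −1.13 at under 5% mitochondrial UMIs and −1.39 with marker minimums doubled, whereas the highest of its 13 alternatives was 1.86. Over all cells of cluster 7, in the gate or not, *Fst* went from 74.2 to 272 CPM. The opposite directions of *Fst* thus depended on which dermal papilla cells were taken. *Tgfb2* rests on 38 and 22 UMIs in the hair germ and on 54 and 80 in the basal epidermis. It was −0.02 (−0.99 to 0.89) within hair germ cluster 13. In the basal epidermis it was 0.95 (0.10 to 1.82) within cluster 0. Within basal cluster 6 it was −1.09 (−2.52 to 0.22), from 13 and 9 UMIs. The basal direction was thus kept in cluster 0 and not in cluster 6, and the hair germ direction was not separated from 0 in cluster 13.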

How the results depend on the processing

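No paired analysis was possible because each group has 1 library, and for the same reason no replicate could be left out. Over 35 ratios of the 10 genes, 483 alternative values were computed, of which 399 stayed within counting error of the main value, 74 moved further and 10 reversed a called value. Of 179 alternatives for the 13 called ratios, 169 kept the sign and 149 kept both sign and 1.5-fold. Reversed values were *Id1* within hair germ clusters 13 (−0.289) and 18 (−0.192) and basal clusters 0 (−0.256) and 6 (−0.189), *Tgfb2* within basal cluster 6 (−1.09), basal *Inhba* at under 5% mitochondrial UMIs (0.00266), and dermal papilla *Fst* at under 5% mitochondrial UMIs (−1.13), with marker minimums doubled (−1.39), without the 5 richest cells (−0.555) and within cluster 7 (−1.17). The within-cluster values come from other mixes of cells by construction, and for the rest the cause was not tested. Suprabasal *Fst* was −0.17 with no upper limit on detected genes and −0.11 with populations from clusters. For 25 ratios of other pathway genes past 1.5-fold, 302 of 339 alternatives stayed within counting error, 35 moved further and 2 reversed, *Pmepa1* within bulge cluster 5 (0.216) and *Smad4* within hair germ cluster 18 (−0.17). Of 500 alternatives each for shares of cells and for CPM, 388 and 322 stayed within counting error.

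Counts of pathway genes called higher or lower moved by over 1.5 times in these settings. With populations from clusters, 9 rather than 5 were higher in the bulge, 2 rather than 4 lower in the hair germ, 1 rather than 2 higher and 1 rather than 2 lower in the dermal papilla and 1 rather than 2 lower in the basal epidermis. At under 5% mitochondrial UMIs the dermal papilla had 0 higher and 4 lower, the basal epidermis 6 higher and 1 lower, and the suprabasal epidermis 2 higher (main 4). With marker minimums doubled the dermal papilla had 1 higher, the basal epidermis 1 lower, and the suprabasal epidermis 2 higher and 5 lower (main 3). With no upper limit on detected genes the suprabasal epidermis had 1 lower. At a minimum of 20 UMIs the bulge had 8 higher, the dermal papilla 5 higher, and the suprabasal epidermis 7 higher and 5 lower. The dermal papilla had 4 lower with the mean over cells of CPM, 0 higher without the richest cell, 1 higher with a pseudocount of 5 UMIs, and 4 higher and 0 lower without the 5 richest cells. Without the 5 richest cells the basal epidermis had 1 lower. The dermal papilla list median moved from 0.03 to 0.160 with a median-of-ratios size factor and to 0.159 without the 5 richest cells, while the median of all genes there moved from −0.07 to 0.06 and 0.10. Dermal papilla *Id3*, at −0.07, ranged from −0.79 with marker minimums doubled to 1.12 without the 5 richest cells. Dermal papilla cells were the shallowest of the 5 main populations, with a median of 4695.5 control and 5656 induced UMIs, which limits what could be seen in them.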
